A study of Drosophila melanogaster with 24 samples.

Results

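Transcript levels of 6 genes of fibroblast growth factor (FGF) signalling, cell fate and branching in the Drosophila airways were followed through development in sima mutants and their controls. The genes were branchless (bnl), breathless (btl), stumps, sprouty (sty), trachealess (trh) and blistered (bs). They were taken by name. Each symbol was matched to its FlyBase identifier in the deposited expression tables. The 6 are part of 10889 gene entries in the embryo table used here and of 17895 in the larval table.

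RNA from 24 samples of Drosophila melanogaster was sequenced, 18 of embryos and 6 of larvae, in 8 groups of 3 samples. Mutants were labelled with alleles 1 and 20 of sima, and controls with allele 1 over a wild-type chromosome. All samples therefore carried allele 1, and the controls were heterozygotes. Embryos were collected at 8 to 12 h, 12 to 16 h and 16 to 20 h, and larvae at 60 h, and the labels give embryo or larva as the tissue. The labels do not say whether samples of a group came from separate crosses or collections, so p-values measure the spread between these samples, which may be technical.

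The tracheal system of the fly is a network of epithelial tubes that carries air to the tissues. The FGF ligand Branchless, secreted by clusters of cells outside the airway, binds the receptor Breathless on tracheal cells and draws branches toward its source. Stumps links the receptor to the Ras and MAP kinase cascade, Sprouty restrains that cascade, Trachealess sets tracheal fate, and Blistered, the fly serum response factor, is needed by the terminal cells that form the finest branches. The sima gene encodes the oxygen-regulated subunit of the fly hypoxia-inducible factor, and in larvae low oxygen is known to raise btl and bnl and to increase terminal branching through it.

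The values were FPKM, fragments per kilobase of gene and per M fragments of the library (M for mega). Multiplied back with the span of each gene from its first to its last base, introns included, they gave whole fragments (within 0.01) for 100% of 60774 embryo values under 200 fragments. With the exon length the share was 1.55%. In larvae the shares were 100% and 1.65%. A gene with long introns therefore has a lower FPKM here than its exon length would give, and this touched the 6 genes to unequal degrees.

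bnl (FBgn0014135) lies on 3R at 19794073 to 19836817 on the minus strand, in the BDGP6 assembly, and spans 42745 bases with 4559 exonic bases. btl (FBgn0285896) lies on 3L at 14075772 to 14083229 on the plus strand and is the most compact of the 6, with 7458 bases and 3968 in exons. stumps (FBgn0020299) lies on 3R at 14577217 to 14608079 on the plus strand, with 30863 bases and 5599 in exons. Introns make up most of the span of each of the 6 genes except btl. sty (FBgn0014388) lies on 3L at 3401153 to 3424935 on the minus strand, with 23783 bases and 5438 in exons. trh (FBgn0262139) lies on 3L at 366524 to 392633 on the minus strand, with 26110 bases and 5502 in exons. bs (FBgn0004101) lies on 2R at 24342861 to 24376473 on the plus strand, with 33613 bases and 4791 in exons. Some exons of btl and of trh overlapped exons of other genes on the same strand. Reads there could belong to either gene, so btl and trh are uncertain to that degree. The other overlapping genes lay in introns or on the opposite strand.

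The mutated gene was measured first. sima averaged 1.96 FPKM in mutants and 2.46 FPKM in controls at 8-12 h, and its mutant values were the lower 3 of 6 at each stage. Genes were tested with limma, a linear model fitted to log2(FPKM + 1) of all genes at once, and a gene is called where its p adjusted over all genes tested was under 0.05. sima passed this test at 12-16 h (adjusted p 0.0238) and at 16-20 h (adjusted p 0.0222), and not at 8-12 h or in larvae. Its log2 fold changes there were -0.22 and -0.26. Neither call was made when each stage was fitted alone (adjusted p 0.134 and 0.0526, with the same fold changes) or with the level of a maternal gene list as a covariate (-0.45 and -0.38, adjusted p 0.160 and 0.0838). At 12-16 h these fits called 773 and 19 of all genes tested, against 2148 in the main fit. At 16-20 h they called 1257 and 135, against 1073. limma-voom, a second test described below, called sima lower at every stage. Its log2 fold changes were -0.34 at 8-12 h, -0.30 at 12-16 h, -0.32 at 16-20 h and -0.36 in larvae. The denominator of the FPKM was 6.60 to 13.4 M fragments in embryo samples and 10.3 to 15.2 M in larval samples. The 6 genes had 40 to 2162 fragments per embryo sample and 103 to 571 per larval sample. That maternal list was higher as a sum in mutant embryos. Of its 5 genes tested, limma called 0 at 8-12 h, CycB and bcd higher at 12-16 h, and CycB, bcd and gcl higher at 16-20 h. Over all genes it called 5.63%, 31.7% and 15.8% at these stages. limma-voom called 3 of 6 higher at 12-16 h, against 32.7% of all genes. Summed over the 7 of 10 listed genes in the embryo table, the list reached 168 to 338 FPKM in mutants and 145 to 156 FPKM in controls at 8-12 h. At 12-16 h it reached 186 to 341 FPKM in mutants and 49.7 to 63.8 FPKM in controls. CycB averaged 173 ± 75.6 FPKM in mutants and 15.0 ± 6.83 FPKM in controls at that stage, and bcd 23.1 ± 12.2 FPKM in mutants and 1.14 ± 1.04 FPKM in controls (SD, n = 3 each), while nanos, gcl and exu overlapped between genotypes, with limma adjusted p of 0.348 to 0.787. At 16-20 h the ranges were 134 to 188 FPKM in mutants and 52.0 to 68.0 FPKM in controls. The sums thus did not overlap between genotypes at any embryo stage. A fit with this list as a covariate therefore cannot separate it well from genotype, and calls lost there decide nothing about single genes. In larvae the sums overlapped, at 12.8 to 19.8 FPKM in mutants and 14.7 to 16.0 FPKM in controls, with osk and BicC at 0 in all 6 samples.

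Per kilobase of exon and M fragments, the order of the 6 genes in 8-12 h mutants was stumps (26.7 ± 1.48), sty (25.2 ± 0.315), trh (20.8 ± 3.20), btl (5.98 ± 0.327), bs (5.60 ± 0.611) and bnl (5.30 ± 0.283; SD, n = 3 each). In 8-12 h controls it was sty (29.3 ± 1.05), stumps (29.2 ± 1.96), trh (22.8 ± 1.98), btl (8.19 ± 0.462), bnl (7.19 ± 0.724) and bs (5.23 ± 0.342; SD, n = 3 each). In both genotypes the samples of sty and stumps overlapped, and trh lay below both and above the lower 3 genes without overlap. Among the lower 3, btl, bs and bnl overlapped as neighbours in mutants, while in controls btl overlapped bnl and bs lay below both. The adaptor and the inhibitor were measured at several times the level of the ligand and the receptor. This scale assumes that the counted fragments fell in exons, which the sources used here do not state.

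By 16-20 h the order had changed. In mutants sty led at 25.2 ± 1.45 per exonic kilobase, followed by trh (14.5 ± 0.921), stumps (7.86 ± 0.435), bs (6.07 ± 1.09), bnl (4.27 ± 0.482) and btl (1.83 ± 0.338). In controls the order was the same, from sty at 27.0 ± 0.790 to btl at 1.72 ± 0.343 (SD, n = 3 each). btl was now lowest and stumps stood below trh, and no neighbours in the order overlapped in either genotype. In 60 h larvae, whose table was normalized apart and is not set against the embryos by any test, all 6 genes lay between 2.01 and 6.73 on this scale in mutants and between 2.67 and 5.82 in controls.

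**Figure D1:**
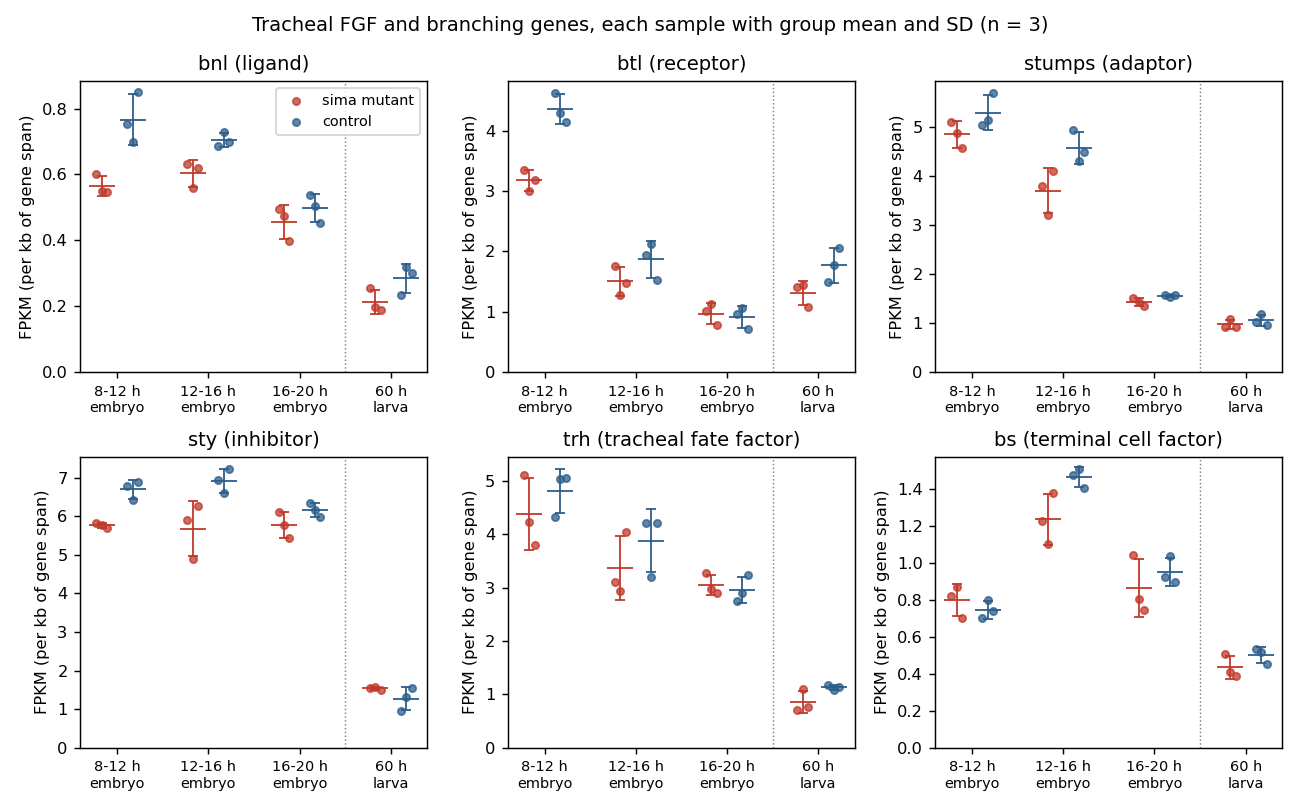
FPKM per kilobase of gene span for each of the 6 genes (own vertical axis from 0) in every sample, with the group mean and SD (n = 3), by stage and genotype; the dotted line separates the larval table. At 8-12 h the mutant values of bnl, btl and sty lie below all control values, and from 12-16 h to 16-20 h btl and stumps are lower in both genotypes.

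The first comparison asked whether loss of sima changed these genes at 8-12 h, when primary branches grow out. The ligand and its receptor showed the largest differences. bnl stood at 0.600, 0.549 and 0.547 FPKM in mutants, against 0.752, 0.698 and 0.850 FPKM in controls. All 3 mutant values lay below all 3 control values. The mean was 0.565 ± 0.0302 FPKM in mutants and 0.767 ± 0.0773 FPKM in controls (SD, n = 3 each), a ratio of 0.737. btl stood at 3.35, 3.00 and 3.19 FPKM in mutants, against 4.63, 4.29 and 4.15 FPKM in controls. Again the groups did not overlap, with means of 3.18 ± 0.174 FPKM in mutants and 4.36 ± 0.246 FPKM in controls (SD, n = 3 each), a ratio of 0.730.

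Neither gene passed limma's test on log2(FPKM + 1). bnl did not pass the filter, which asked for 1 FPKM in at least 3 samples, and gave a log2 fold change of -0.17 without the filter (limma adjusted p 0.0715). btl gave -0.36 (SE 0.106, limma adjusted p 0.0613). limma-voom, which models the recovered fragments and weights each value by its precision, tested all 6 genes. It gave -0.43 for bnl (SE 0.0993, adjusted p 0.0144) and -0.46 for btl (SE 0.123, adjusted p 0.0311), so that both fell by that test. btl also passed with limma after median centring (-0.39, adjusted p 0.0491), and with the level of the maternal list as a covariate it had -0.40 (adjusted p 0.122). Of the alternative limma and limma-voom fits, 1 of 3 called bnl (adjusted p 0.0144 to 0.169) and 2 of 10 called btl (adjusted p 0.0311 to 0.183). limma called btl in 0 of 6 fits that left out 1 sample, and no such fit was made for bnl. The fragment filter of limma-voom was chosen after seeing the data. A two-sided exact permutation test of each gene alone gave p 0.1, the smallest that 3 samples against 3 allow.

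Of the remaining genes at 8-12 h, the inhibitor sty stood at 5.83, 5.77 and 5.69 FPKM in mutants, against 6.78, 6.42 and 6.88 FPKM in controls. The mutant values were tightly grouped and lay below every control value, but limma's log2 difference of -0.19 (SE 0.0765) had an adjusted p of 0.163. stumps averaged 4.85 ± 0.269 FPKM in mutants and 5.29 ± 0.355 FPKM in controls, and trh 4.38 ± 0.675 FPKM in mutants and 4.81 ± 0.417 FPKM in controls (SD, n = 3 each). bs averaged 0.798 ± 0.0871 FPKM in mutants and 0.746 ± 0.0488 FPKM in controls (SD, n = 3 each). For these 3 genes the groups overlapped, and limma's adjusted p lay between 0.486 and 0.833. Together, 0 of the 5 genes that passed the filter were called by limma, against 5.63% of all 6784 genes tested. By unadjusted limma p under 0.05 there were 2, and limma-voom called 2 of 6, against a background of 8.44%. The mutant values lay wholly below the control values in 3 of 6 genes, as they did in 14.7% of all genes tested. Fewer tracheal cells and less RNA per cell cannot be told apart in whole animals.

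At 12-16 h the adaptor and the inhibitor fell in mutants. stumps stood at 3.79, 3.22 and 4.11 FPKM in mutants, against 4.93, 4.30 and 4.50 FPKM in controls. The groups did not overlap, and mutant sample 2 was the lowest. The means were 3.71 ± 0.453 FPKM in mutants and 4.58 ± 0.323 FPKM in controls (SD, n = 3 each), and limma gave -0.25 on the log2 scale (SE 0.0805, adjusted p 0.0288). sty stood at 5.89, 4.89 and 6.26 FPKM in mutants, against 6.95, 6.60 and 7.21 FPKM in controls. Mutant sample 2 was again the lowest, and all mutant values lay below all control values. The means were 5.68 ± 0.710 FPKM in mutants and 6.92 ± 0.309 FPKM in controls (SD, n = 3 each), and limma gave -0.25 on the log2 scale (SE 0.0765, adjusted p 0.0217).

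The other 4 genes were lower on average in 12-16 h mutants without passing the test. bnl stood at 0.632, 0.558 and 0.620 FPKM in mutants, against 0.685, 0.728 and 0.700 FPKM in controls. These did not overlap, and limma-voom gave -0.23 (SE 0.103, adjusted p 0.0981). bs stood at 1.23, 1.10 and 1.38 FPKM in mutants, against 1.48, 1.51 and 1.41 FPKM in controls. These were also apart, by a small gap, and limma gave -0.14 (SE 0.0797, adjusted p 0.189). btl averaged 1.50 ± 0.239 FPKM in mutants and 1.87 ± 0.308 FPKM in controls, and trh 3.37 ± 0.602 FPKM in mutants and 3.88 ± 0.587 FPKM in controls (SD, n = 3 each). Both overlapped between genotypes (limma adjusted p 0.174 and 0.310). limma thus called 2 of 5 genes, both lower, where 31.7% of all genes were called and 13.6% were called lower. The groups lay apart with mutants lower in 4 of 6 genes, against 19.8% of all genes. limma-voom also called stumps and sty, 2 of 6, against 32.7% of all genes.

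The 12-16 h calls were not all made when certain single samples were left out. Mutant sample 2 had the lowest value of all 6 samples for every one of the 6 genes and the highest maternal sum, 341 FPKM, against 186 and 188 FPKM in mutant samples 1 and 3. Without it, limma called 0 of 5 genes, with sty at -0.16 (adjusted p 0.113) and stumps at -0.17 (adjusted p 0.145). Without control sample 1 the count was also 0 (sty adjusted p 0.0559, stumps 0.111), and without control sample 3 it was 1, with sty at an adjusted p of 0.0652. How many of all genes were called without these samples is not given here, so the losses may not be particular to sty and stumps. With the maternal level as a covariate, limma gave 0.06 for stumps (adjusted p 0.901), and no gene of the 6 was called. Over all genes tested, that fit called 19, against 2148 without the covariate. limma fitted to the 6 samples of this stage alone also called 0 (adjusted p 0.172 for sty and 0.180 for stumps). That fit called 773 of all genes tested, so fewer calls were made over the genes as a whole too.

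At 16-20 h limma called 0 of 5 genes, against 15.8% of all genes tested, and there were 0 at an unadjusted limma p under 0.05 and 0 of 6 with limma-voom, against 13.0%. stumps stood at 1.50, 1.43 and 1.35 FPKM in mutants, against 1.57, 1.53 and 1.56 FPKM in controls. The mutant values lay just below the controls, by -0.08 on the log2 scale in limma (adjusted p 0.580), and this was the 1 gene of 6 whose groups did not overlap, against 21.5% of all genes with mutants lower. sty averaged 5.77 ± 0.331 FPKM in mutants and 6.17 ± 0.181 FPKM in controls (SD, n = 3 each). bnl averaged 0.456 ± 0.0514 FPKM in mutants and 0.498 ± 0.0430 FPKM in controls (SD, n = 3 each). btl, trh and bs differed by log2 fold changes of 0.04, 0.03 and -0.07, all smaller than their SE of 0.106, 0.119 and 0.0797.

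In 60 h larvae limma called 0 of the 4 genes that passed the filter, against 9.40% of 8619 genes, with 0 at an unadjusted limma p under 0.05 and 0 of 6 with limma-voom, against 11.7%. The unadjusted limma-voom p was under 0.05 for btl (-0.45, p 0.0393), trh (-0.41, p 0.0422) and bnl (-0.44, p 0.0429). It was above 0.05 for sty, stumps and bs, and the share of all genes at that threshold is not given here. The receptor lay furthest apart. btl stood at 1.41, 1.45 and 1.07 FPKM in mutants, against 1.49, 1.77 and 2.06 FPKM in controls. The groups did not overlap but nearly met. The ratio of means was 0.739, and limma gave -0.26 on the log2 scale (SE 0.123, adjusted p 0.227). bnl stood at 0.255, 0.199 and 0.188 FPKM in mutants, against 0.235, 0.320 and 0.299 FPKM in controls. These overlapped, with a ratio of 0.751 and a limma-voom adjusted p of 0.151. trh averaged 0.860 ± 0.210 FPKM in mutants and 1.13 ± 0.0502 FPKM in controls, and sty 1.54 ± 0.0441 FPKM in mutants and 1.27 ± 0.299 FPKM in controls (SD, n = 3 each). sty was the 1 gene with the higher mean in mutants, and its limma adjusted p was 0.409. stumps and bs had ratios of 0.921 and 0.865 with overlapping groups. 1 of 6 genes thus had mutant values wholly below the controls, against 20.1% of all genes tested.

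Summed levels of markers of other tissues also differed between the larval groups. The 7 mesoderm and muscle markers summed to 387 to 505 FPKM in mutants and 693 to 722 FPKM in controls. The 4 neuron and glia markers summed to 9.88 to 12.1 FPKM in mutants and 5.58 to 6.95 FPKM in controls. The 6 fat body and gut markers summed to 2955 to 3442 FPKM in mutants and 3708 to 4559 FPKM in controls. limma called 2 of 4 muscle genes lower and 2 of 4 neuron and glia genes higher, where 9.40% of all genes were called. Of the fat body and gut list limma called 0 of 4, with 2 at an unadjusted p under 0.05, and limma-voom called 0 of 4. The median log2 fold change of that list was -0.05, against -0.03 over all genes. None of these lists held a marker at 0 throughout, and their part in the values of the 6 genes was not tested.

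**Figure D2:**
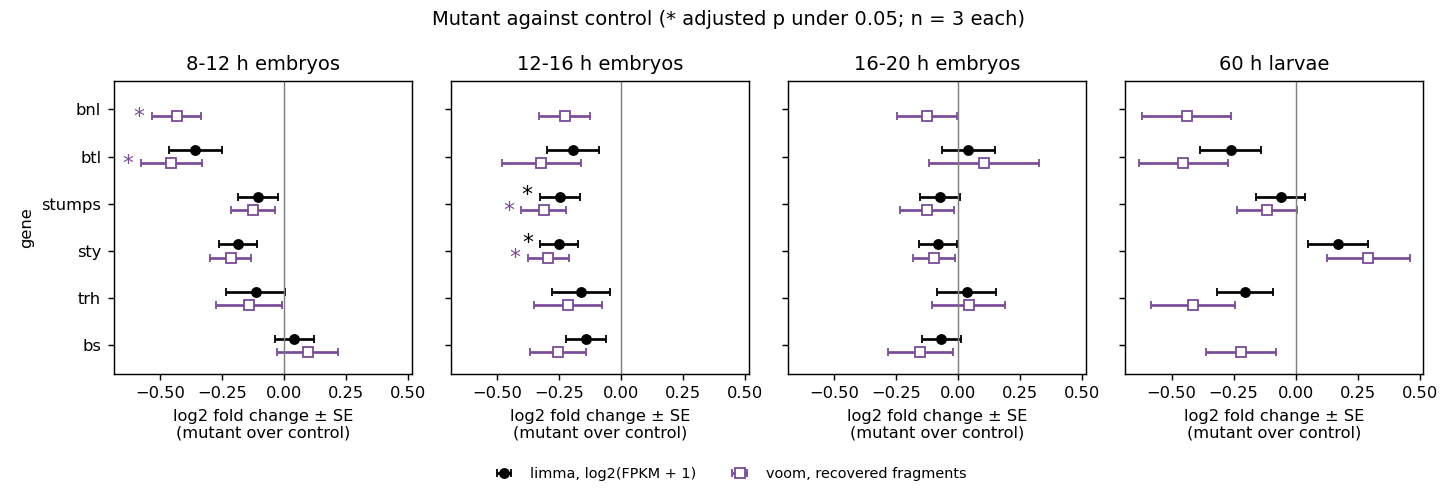
Log2 fold change of mutants over controls ± SE for the 6 genes at each stage (n = 3 each), from limma on log2(FPKM + 1) where the gene passed the filter and from limma-voom on recovered fragments; asterisks mark an adjusted p under 0.05. Asterisks stand at bnl and btl at 8-12 h by limma-voom and at stumps and sty at 12-16 h by both, and none stand at 16-20 h or in larvae.

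Over all 6 genes the median log2 difference of mutants from controls was -0.14 at 8-12 h, -0.18 at 12-16 h, -0.06 at 16-20 h and -0.08 in larvae, beside medians over all genes tested of 0.015, 0.017, -0.025 and -0.029. The mean was lower in mutants for 5, 6, 4 and 5 of the 6 genes at these stages. Whether the genotype effect differed between the 3 embryo stages was tested with limma's F test of the genotype by stage terms. It called 0 of 5 genes, against 14.6% of all genes, and 0 had an unadjusted p under 0.05. btl had the lowest adjusted p (0.155), and limma-voom called 0 of 6, against 9.38%. The calls at single stages therefore do not show that the effect on any of these genes differed between stages.

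The course of the 6 genes with embryonic age was examined within each genotype. The receptor and the adaptor fell with age in both genotypes. btl averaged 3.18, 1.50 and 0.971 FPKM in mutants at 8-12 h, 12-16 h and 16-20 h, and 4.36, 1.87 and 0.917 FPKM in controls. It fell in both intervals. Between 8-12 h and 12-16 h btl changed by -0.74 on the log2 scale in mutants (SE 0.106, limma adjusted p 1.64e-05) and -0.91 in controls (SE 0.106, limma adjusted p 2.02e-06). Between 12-16 h and 16-20 h it was -0.34 in mutants (limma adjusted p 0.0102) and -0.58 in controls (limma adjusted p 0.000166). The added 1 shrinks the later, lower values. By limma-voom the earlier and later changes were -1.10 and -0.61 in mutants and -1.23 and -1.04 in controls (SE 0.138 and 0.186 in controls), and no test compared the intervals. stumps averaged 4.85, 3.71 and 1.43 FPKM in mutants over the same stages, and 5.29, 4.58 and 1.56 FPKM in controls. Its larger fall came later, by -0.95 in mutants (SE 0.0805, limma adjusted p 5.9e-08) and by -1.13 in controls (SE 0.0805, limma adjusted p 5.1e-09) between 12-16 h and 16-20 h. The earlier change of stumps was -0.32 in mutants (limma adjusted p 0.00277) and -0.17 in controls (limma adjusted p 0.0668). By limma-voom it was -0.40 in mutants (adjusted p 0.000765) and -0.21 in controls (adjusted p 0.0433). The intervals of stumps were not compared by a test either.

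The terminal cell factor bs peaked at 12-16 h. It averaged 0.798, 1.24 and 0.865 FPKM in mutants at the 3 stages, and 0.746, 1.46 and 0.952 FPKM in controls. In both genotypes every 12-16 h value lay above every value of the other 2 stages. From 8-12 h to 12-16 h it rose by 0.31 in mutants (SE 0.0797, limma adjusted p 0.00278) and by 0.50 in controls (limma adjusted p 5.38e-05), but after quantile normalization the change was -0.26 in mutants (limma adjusted p 0.00747) and 0.01 in controls (limma adjusted p 0.892). Quantile normalization shifted the median of all genes by -0.25 in that mutant comparison and by -0.18 in that control comparison. The median of all genes then stood at -0.22 in mutants and -0.16 in controls. The later fall of bs, -0.26 in mutants (limma adjusted p 0.00934) and -0.34 in controls (limma adjusted p 0.00153), was called under both scalings tried. bs passed the FPKM filter through its 12-16 h peak, so both the rise and the fall by limma are partly set by the filter.

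The ligand bnl fell late. On recovered fragments its log2 change from 12-16 h to 16-20 h was -0.40 in mutants (SE 0.117, limma-voom adjusted p 0.00652) and -0.50 in controls (SE 0.109, limma-voom adjusted p 0.000539), while the earlier change was 0.09 in mutants and -0.12 in controls, with neither called. trh averaged 4.38, 3.37 and 3.05 FPKM in mutants and 4.81, 3.88 and 2.96 FPKM in controls over the 3 stages. Its fall passed from 8-12 h to 12-16 h in mutants (-0.30, limma adjusted p 0.0351) and from 12-16 h to 16-20 h in controls (-0.30, limma adjusted p 0.0379), and the values of neighbouring stages overlapped in each case. sty averaged 5.76, 5.68 and 5.77 FPKM in mutants and 6.69, 6.92 and 6.17 FPKM in controls, and limma called none of its 4 stage changes. Median centring and quantile normalization each called it lower in mutants at 12-16 h and in controls at 16-20 h.

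In mutants limma called 4 of 5 genes between 8-12 h and 12-16 h and 3 of 5 between 12-16 h and 16-20 h, where 64.9% and 63.9% of all genes were called. In controls it called 2 of 5 and then 4 of 5, where 68.1% and 67.8% of all genes were called. limma-voom, which tested all 6, called 4 and 4 in mutants (backgrounds 67.9% and 62.5%) and 4 and 5 in controls (71.0% and 67.7%). For bs limma-voom, with a filter on fragments, gave an earlier change of 0.63 in mutants (adjusted p 0.000146) and 0.97 in controls (adjusted p 1.1e-06), and a later one of -0.52 in mutants (adjusted p 0.00167) and -0.62 in controls (adjusted p 0.000161).

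**Figure D3:**
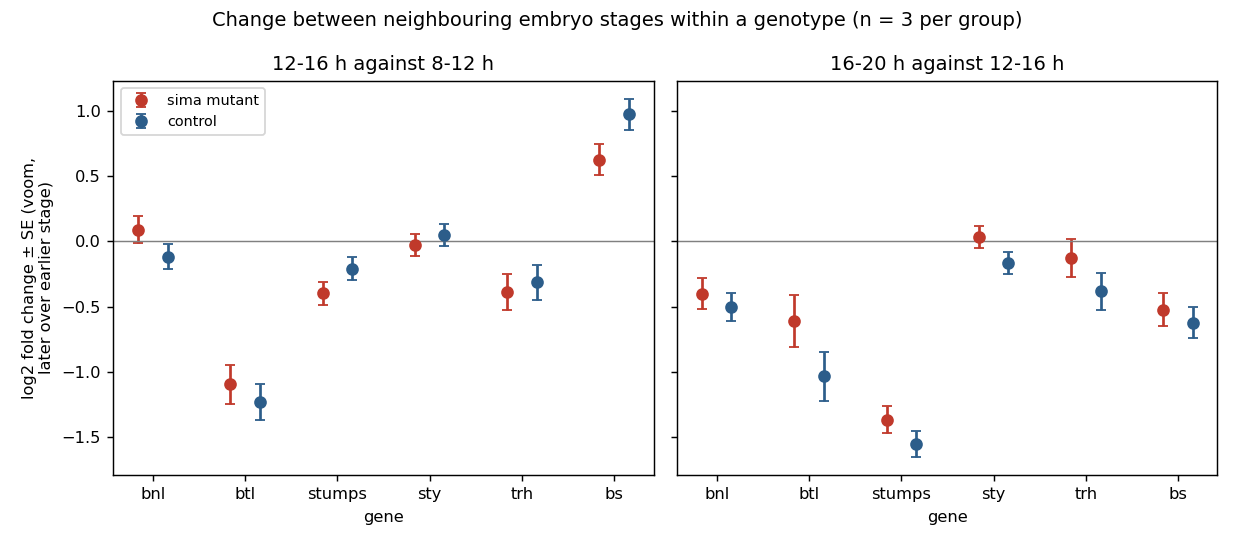
Log2 fold change ± SE between neighbouring embryo stages for the 6 genes in mutants and controls (limma-voom on recovered fragments, later over earlier stage, n = 3 per group). btl has its lowest point in the earlier interval and stumps in the later one, and bs is above 0 in the earlier interval and below 0 in the later one, in mutants and controls.

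The pattern over the 18 embryo samples was compared with that of all 6784 genes tested, by Pearson's r of log2(FPKM + 1), as a description over samples that share stage and depth. The closest genes to btl were Tbp and puf (both r = 0.982), and the closest to stumps were 18w and CG10616 (both 0.995). For trh they were CG10151 (0.942) and lin (0.935), for bs CG4467 (0.956) and CG33523 (0.948), and for bnl Wnt2 (0.900) and rgr (0.899). For sty they were Meltrin (0.893) and Hph (0.809), which encodes the prolyl hydroxylase that marks the Sima protein for breakdown. Among the 6 themselves r was 0.853 between btl and stumps, 0.824 between bnl and stumps, and 0.822 between btl and trh. sty followed none of the others above 0.687, and bs and btl ran opposite (-0.324).

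The rest of the signalling pathway was examined in a list of 18 genes of receptor tyrosine kinase and Ras signalling, 12 of them tested in embryos. At 8-12 h 1 was called, where 5.63% of all genes were called. This was pnt, an ETS factor that acts at the end of the cascade. It averaged 1.37 ± 0.118 FPKM in mutants and 1.93 ± 0.0468 FPKM in controls (SD, n = 3 each), and limma gave -0.31 on the log2 scale (adjusted p 0.0235). The call was not made when that stage was fitted alone (adjusted p 0.114), where 81 of all genes were called, against 382 in the main fit. At 12-16 h 3 of 12 fell and 2 rose, where 31.7% of all genes were called. The mesodermal FGF receptor gene htl fell by 0.27 (limma adjusted p 0.0265), its ligand gene ths fell by 0.27 (limma adjusted p 0.0125), and pnt fell by 0.21 (limma adjusted p 0.0352). Ras85D, the Ras GTPase, rose by 0.40 (limma adjusted p 0.0293), a rise that did not pass under either scaling, and cnk, a scaffold of Raf, rose by 0.41 (limma adjusted p 0.0167). At 16-20 h 1 of 12 was called, where 15.8% of all genes were called. This was Ras85D, at 0.44 (limma adjusted p 0.0307, not called after quantile normalization). In larvae limma called 0 of 14, with 0 at an unadjusted p under 0.05, and limma-voom called 0 of 18. The median log2 fold change of the list was -0.04, -0.10, 0.00 and -0.02 at the 4 stages, against the all-gene medians of 0.015, 0.017, -0.025 and -0.029.

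Heparan sulfate chains on the cell surface hold FGF ligands near their receptors. Of 12 listed genes of their cores and synthesis, 6 were tested. sgl, which makes the UDP-glucuronate that the chains are built from, averaged 62.8 ± 2.69 FPKM in mutants and 44.1 ± 5.29 FPKM in controls at 16-20 h (SD, n = 3 each; log2 fold change 0.51, limma adjusted p 0.0148). It also rose at 12-16 h by 0.40 (limma adjusted p 0.0286, not called under either scaling) and in larvae by 0.59 (limma adjusted p 0.0155). dlp, a glypican core, fell at 12-16 h by 0.25 (limma adjusted p 0.0343). No other gene of the list was called by limma, and at 8-12 h it called 0 of 6, with 3 at an unadjusted p under 0.05, while limma-voom called 0 of 7. Of all genes limma called 5.63% at 8-12 h, 31.7% at 12-16 h, 15.8% at 16-20 h and 9.40% in larvae. In larvae limma-voom tested 12 and called 1 higher and 1 lower, against 11.7% of all genes called. The list's medians were 0.02, -0.01, 0.15 and -0.15 at the 4 stages.

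Of 6 other tracheal transcription factors tested, 3 fell in 12-16 h mutants, where 13.6% of all genes were called lower. vvl, which acts with trh in tracheal cells, averaged 48.8 ± 8.99 FPKM in mutants and 67.7 ± 1.68 FPKM in controls (SD, n = 3 each; log2 fold change -0.48, limma adjusted p 0.00232). rib gave -0.44 (limma adjusted p 0.0420), and knrl, a nuclear receptor of dorsal and visceral branches, gave -0.34 (limma adjusted p 0.00988). rib was higher in mutants at 16-20 h, at 12.2 ± 0.233 FPKM against 7.72 ± 2.29 FPKM in controls (SD, n = 3 each; 0.63, limma adjusted p 0.0128). It was the 1 gene of 6 called there, against 15.8% of all genes. The list's medians were -0.09, -0.26, -0.02 and -0.11 at the 4 stages. In larvae limma called 0 of 4, with 0 at an unadjusted p under 0.05, and limma-voom called 0 of 8.

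Of 6 genes of signals that pattern the branches, 2 were called lower and 1 higher at 12-16 h, where 31.7% of all genes were called. rho, which releases the EGF ligand, gave -0.43 (limma adjusted p 0.00882), the EGF receptor gene Egfr gave -0.36 (limma adjusted p 0.00309), and put, a receptor of the Dpp pathway, gave 0.72 (limma adjusted p 0.00777). Of 5 genes of fusion and terminal cells, 1 was called at 12-16 h and 2 at 16-20 h, where 31.7% and 15.8% of all genes were called. At 12-16 h heca rose by 0.42 (limma adjusted p 0.0129). At 16-20 h dysf, a fusion cell transcription factor, rose by 0.26 (limma adjusted p 0.0211, not called under either scaling) and shg, the E-cadherin gene, rose by 0.41 (limma adjusted p 0.0296, not called after quantile normalization). In larvae limma called 0 of 4 branch signal genes and 0 of 3 fusion and terminal cell genes. limma-voom called 1 of 11 and 2 of 6 there, all higher in mutants, against 11.7% of all genes called. The medians were -0.12, -0.18, 0.01 and -0.02 for the branch signals and 0.03, -0.03, 0.21 and 0.22 for the fusion and terminal cell genes at the 4 stages.

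Of 14 genes of the tube wall and its chitin tested in embryos, 6 were called at 12-16 h, all lower in mutants, where 13.6% of all genes were called lower. Nrx-IV, a septate junction protein, averaged 25.7 ± 4.70 FPKM in mutants and 38.0 ± 3.71 FPKM in controls (SD, n = 3 each; log2 fold change -0.56, limma adjusted p 0.00213). knk, needed to order luminal chitin, also gave -0.56 (limma adjusted p 0.0326), and the claudin gene kune gave -0.38 (limma adjusted p 0.00966). At 16-20 h 2 were called, both higher in mutants, where 15.8% of all genes were called. Gasp, a chitin-binding protein of the lumen, stood at 43.6 ± 2.88 FPKM in mutants and 22.8 ± 2.04 FPKM in controls (SD, n = 3 each; 0.91, limma adjusted p 0.00590), and the chitin synthase gene kkv gave 0.39 (limma adjusted p 0.0300, not called under either scaling). In larvae 1 of 22 was called, against 9.40% of all genes. This was knk, at 1.65 ± 0.271 FPKM in mutants and 3.21 ± 0.676 FPKM in controls (SD, n = 3 each; -0.66, limma adjusted p 0.0434, not called after median centring). The list's medians were -0.01, -0.15, 0.04 and -0.02 at the 4 stages.

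**Figure D4:**
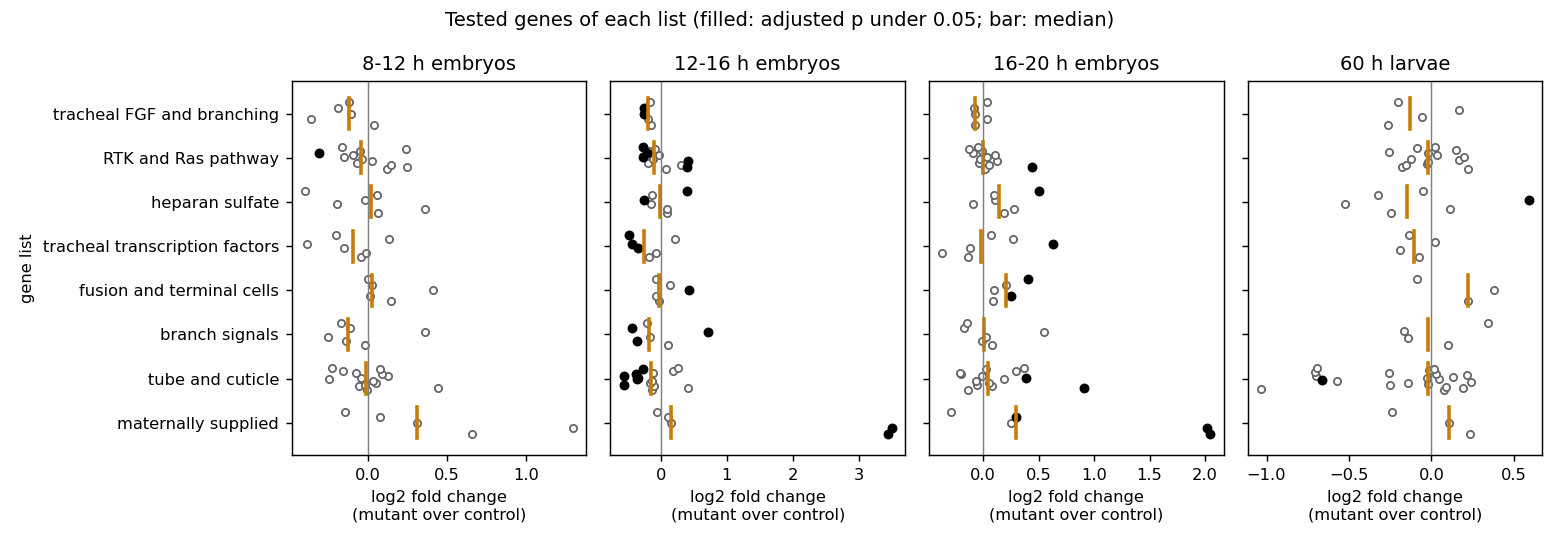
Log2 fold change of mutants over controls on log2(FPKM + 1) for each tested gene of 8 lists at 4 stages, filled where limma's adjusted p was under 0.05, with an orange bar at the list's median. At 12-16 h the called tracheal factors and tube genes lie left of 0, and the largest points are the maternally supplied genes bcd (3.50) and CycB (3.45).

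The embryo calls of these 6 lists depended on the fit. With the maternal level as a covariate in limma, none of the 17 genes named above at 12-16 h, the 7 at 16-20 h and the 1 at 8-12 h was called. Calls over all genes fell as well, from 2148 to 19 at 12-16 h, from 1073 to 135 at 16-20 h and from 382 to 144 at 8-12 h. The lost calls were therefore not particular to these lists. At 12-16 h 6 of the 17 changed sign, while sgl, dlp, knk and Nrx-IV had fold changes at least as large (0.80, -0.54, -0.73 and -0.62). At 16-20 h 1 of the 7 changed sign, Ras85D, and 5 had fold changes at least as large, among them rib (0.90, adjusted p 0.0724) and Gasp (0.98, adjusted p 0.128). With each stage fitted alone the fold changes were the same and only the p-values differed. limma then called 1 of the 17 at 12-16 h, heca, and 4 of the 7 at 16-20 h, sgl, Ras85D, Gasp and kkv. Over all genes it called 773 at 12-16 h, against 2148 in the main fit, and 1257 at 16-20 h, against 1073. Midline glia also express btl, and their gene sli fell by 0.31 at 12-16 h (limma adjusted p 0.0237), when the 2 midline glia markers in the embryo table summed to 7.30 to 9.78 FPKM in mutants and 10.02 to 12.1 FPKM in controls. The heart mesoderm uses htl, and its gene tin fell by 0.43 at 8-12 h (limma adjusted p 0.0446, not called after quantile normalization), when the 4 mesoderm and muscle markers summed to 7.51 to 9.86 FPKM in mutants and 9.31 to 11.0 FPKM in controls. No marker of either list was at 0, and their part in the values of the 6 genes was not tested.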

How the data were processed

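Total RNA was made into strand-specific TruSeq mRNA libraries, per the labels' protocols. The authors deposited FPKM values, in a table of embryo samples and another of larval samples that were normalized separately. The submitters' processing notes name featureCounts, DESeq2 and the BDGP6 assembly; versions, the aligner and the length behind the FPKM are not given in the sources used here. The FPKM were multiplied back to fragments with gene spans from the Ensembl release 115 annotation of BDGP6, which gave whole numbers and the denominator of each library; counts in the text are these recovered fragments. The embryo table used here held 14336 complete entries, equal to the first 14336 of 24278 in the larval table, and later genes were not analysed here in embryos. One incomplete entry was left out. No sequence was used.

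The tables were tested apart. log2(FPKM + 1) of genes with at least 1 FPKM in at least 3 samples (6784 in embryos, 8619 in larvae) was fitted with limma 3.58.1 (lmFit, then eBayes allowing a mean-variance trend; R 4.3.3), with 18 embryo samples in 6 group means and 6 larval samples in 2, Benjamini-Hochberg adjustment over all genes tested and a threshold of 0.05. The added 1 makes fold changes of low genes such as bnl and bs too small. Single genes were also given an exact permutation test. The fits were checked on simulated data. Over 24 pairs of samples of a group, Pearson's r across genes was 0.961 to 0.993, and none agreed within sampling noise. Tables and figures were made with Python 3.11.15. No interval is given for single values, and counting error is largest at 40 fragments.

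Alternatives were a pseudocount of 0.1, no filter, a minimum of 5 FPKM, eBayes with no trend, median centring, a replicate block, quantile normalization, limma-voom on recovered fragments, the maternal level as a covariate, a fit to 1 stage, and leaving out each sample. The fragment filter of limma-voom (at least 10 in at least 3 samples) and the pseudocount of 0.1 without a filter were chosen after seeing the data.

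The 6 genes and all lists were chosen with earlier results of these data known. Named genes are the 6, sima, the called genes of each list in a genotype comparison (at most 3 higher and 3 lower by size), and the 2 genes closest to each of the 6 by Pearson's r.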

Additional observations from a re-analysis of the deposited data

How the results depend on the processing

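The count of the 6 genes called in mutants against controls depended on the processing at 12-16 h, where limma on log2(FPKM + 1) called 2. It called 4 after quantile normalization (btl, stumps, sty and bs), 1 with a pseudocount of 0.1 and no filter, 0 with the maternal level as a covariate, 0 when that stage was fitted by itself, and 0 to 2 when each sample was left out in turn. Over all genes the covariate fit called 19 and the fit to that stage 773, against 2148 in the main fit. The log2 fold change of stumps was then 0.0559 with the maternal covariate, the opposite sign. At 8-12 h the count was 0, and it was 1 after median centring and 2 with limma-voom. With a minimum of 5 FPKM only trh, sty and stumps were left in embryos and none of the 6 in larvae. That setting called 2 and 1 in the earlier and later interval in mutants, and 0 and 2 in controls. The earlier control interval gave 4 after median centring, 4 with limma-voom and 4 with the maternal covariate. For bs in mutants that interval gave -0.2583 after quantile normalization, the opposite sign. The cause of these changes was not tested, except that the minimum of 5 FPKM tested fewer genes. Counts at 16-20 h, in larvae and for differences between stages were 0 under every alternative run. Over all genes, 1222 of 2148 calls at 12-16 h were higher in mutants, against 1048 of 2731 after quantile normalization, which shifted the median by -0.11, and 1057 of 2453 after median centring. Of the alternatives for single genes, 708 stayed on the same side of the threshold, 24 of them with the opposite sign and uncalled both ways, 26 lost the call, 26 gained it and 2 called values changed sign.

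The titles number the samples of each group alike. Samples with the same number did not deviate together (correlations of -0.393 to 0.0973). Samples handled together need not deviate together, so whether the numbers pair mutants and controls is not known. With a replicate block within each stage, limma called 1 of the 6 at 12-16 h (sty, adjusted p 0.0427, with stumps at 0.0755) and 0 at the other stages. sima was then not called at 12-16 h or 16-20 h (adjusted p 0.0831 and 0.0860), and of the named genes of the 6 pathway lists 1 of 1 at 8-12 h, 8 of 17 at 12-16 h, 4 of 7 at 16-20 h and 2 of 2 in larvae were not called. Over all genes, calls with the block were 197, 1676 and 798 at the embryo stages and 133 in larvae. The main fit called 382, 2148, 1073 and 810. The block was not run for changes between stages.

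The lowest of the 6 genes had 40 fragments in a sample, and 3 samples a group cannot give an exact p under 0.1. Embryo genes past the end of the table, sequences and tracheal cell numbers were not analysed here.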

Other observations

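The Osiris genes, a family of transmembrane proteins made by cuticle-secreting epithelia that include the trachea, peaked in 12-16 h embryos of both genotypes. Their 9 members summed to 432 to 977 FPKM in mutants and 211 to 539 FPKM in controls at 8-12 h, and to 4818 to 5775 FPKM in mutants and 5403 to 6341 FPKM in controls at 12-16 h. At 16-20 h they summed to 203 to 257 FPKM in mutants and 54.2 to 63.1 FPKM in controls, and limma called 8 of 9 higher in mutants, against 15.8% of all genes called. With that stage fitted alone limma called 6, and with the maternal level as a covariate 0, at a median log2 fold change of 1.89 over the 9 against 2.03 without it. Over all genes these fits called 1257 and 135, against 1073 in the main fit. Osi19 averaged 12.1 ± 0.581 FPKM in mutants and 1.79 ± 0.977 FPKM in controls, with a limma adjusted p of 0.00101 (SD, n = 3 each). These differences were in the same samples as the higher Gasp and kkv levels at that stage. In larvae the sums ranged from 31.4 to 883 FPKM in mutants and from 769 to 2122 FPKM in controls, and limma called 0 of 9, with 3 at an unadjusted p under 0.05, and limma-voom also called 0 of 9.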
